A study of Mus musculus with 18 samples.

Results

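The ileal epithelium libraries of this study were compared along the axis from crypt to villus. All 18 libraries were used. Each received a score, the mean log2(CPM + 1) of Mki67, Top2a, Ccnb1, Cdk1, Mcm5 and Pcna, which are genes of dividing cells (CPM, counts scaled by the library total). Within each of the 3 groups the 3 libraries with the highest score were called crypt-rich and the 3 with the lowest villus-rich, so that 9 libraries stood against 9. The classes were thus chosen by measured expression. Every class difference below is a description of the libraries and carries no p-value. The 6 score genes are not described one by one, but counts and shares over all tested genes include them unless stated otherwise.

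Epithelial cells were sorted by flow cytometry from the ileum, the far end of the small intestine, and their polyadenylated RNA was sequenced in bulk. The groups were lactating females at day 7 of lactation (Lactating), virgin females of matched age (VirginF) and virgin males of matched age (VirginM), with 6 libraries each. All mice ate standard chow, RM3 in breeding and RM1 in maintenance and during the experiment. The labels name no strain, allele, age in weeks or sorting gate, and do not say whether each library is 1 animal. P-values therefore measure the spread between these libraries, which may be technical in part.

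In the small intestine, stem cells at the crypt base are kept by Wnt signals and lie among Paneth cells, which secrete antimicrobial peptides. Their daughters divide in the upper crypt, leave the cell cycle and move up the villus as absorptive, goblet, enteroendocrine or tuft cells until they are shed at the tip. Absorptive cells change on the way: antimicrobial genes are known to be most active low on the villus, transporters of sugars and amino acids in its middle, and apolipoproteins and purine-handling enzymes at the tip.

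The score set the female libraries far apart and the male libraries little. In Lactating the crypt-rich libraries had scores of 6.13 ± 0.41 and the villus-rich libraries 4.96 ± 0.49 (SD, n = 3 each). In VirginF these were 6.02 ± 0.51 and 5.0 ± 0.47, and in VirginM 6.25 ± 0.13 and 5.96 ± 0.17. The gap between class means was thus 1.17 in Lactating, 1.02 in VirginF and 0.28 in VirginM. All 3 villus-rich VirginM libraries scored above the lowest crypt-rich library of Lactating and of VirginF, and all 6 villus-rich female libraries scored below every VirginM library. The names of the classes therefore hold only within a group. The divide in VirginM ran between replicates 6 and 3, whose scores differed by 0.00039. Between groups the mean score differed by 0.04 for Lactating minus VirginF (two-sided exact permutation p = 0.929), by 0.60 for VirginM minus VirginF (exact p = 0.0736) and by -0.56 for Lactating minus VirginM (exact p = 0.104). Adjusted over the 3 comparisons the p-values were 0.929, 0.156 and 0.156. The score range in VirginM, 5.87 to 6.39, was narrower than in Lactating (4.48 to 6.55) or VirginF (4.46 to 6.43).

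**Figure D1:**
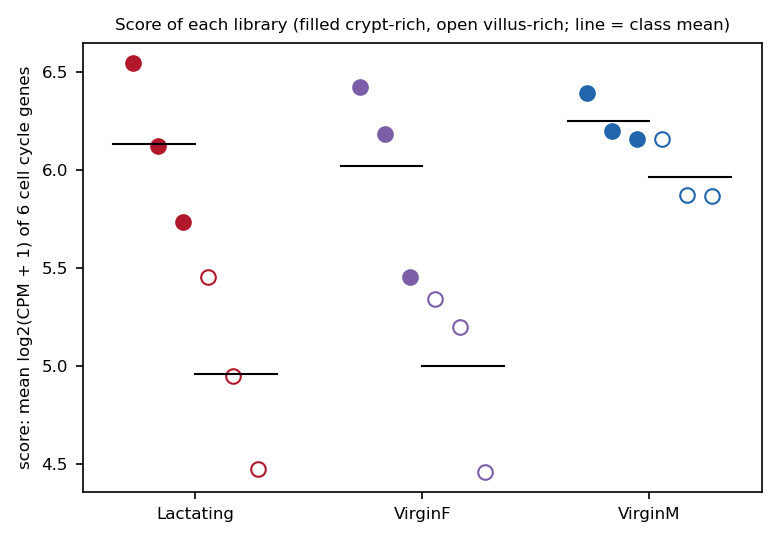
The score of each of the 18 libraries (y axis, mean log2(CPM + 1) of 6 cell cycle genes) by group, in falling order. Filled points are crypt-rich, open points villus-rich and lines class means. The class means lie 1.17 apart in Lactating and 0.28 apart in VirginM, where the lowest filled and the highest open point are level.

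Scores that left out Top2a, Ccnb1, Cdk1 or Mcm5, or used the replication, mitosis or stem cell list in place of the 6 genes, gave the same 9 crypt-rich libraries. A score without Mki67, without Pcna or from CPM scaled by the trimmed mean of M-values (TMM) exchanged VirginM 3 and VirginM 6, and kept 8 of the 9. Library totals ran from 34577104 to 49039300 counts. VirginF 2, a villus-rich library, and VirginM 6, a crypt-rich one, held 31048 and 29981 CPM of Gm42418, a transcript that overlaps ribosomal RNA, against 1230 to 4477 CPM in the others. VirginM 6 also held 5.85 CPM of Xist, which stood at 0.135 to 0.283 CPM in the other males and at 115 CPM or more in females. The label of sorted epithelium was checked with defining markers. Epcam stood at 1504 to 3165 CPM and Ptprc, the common marker of leukocytes, at 0.0397 to 0.373 CPM.

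Gene levels below are CPM scaled by TMM. A class difference is crypt-rich minus villus-rich on the log2 scale from an edgeR fit with group as a block, where 1 is a 2-fold difference. A gene is called separated in a group when all 3 crypt-rich libraries lay on one side of all 3 villus-rich libraries. Of 15572 genes tested, 50.7% had a difference above 0. At any fold, 152 genes (0.976%) were separated with crypt-rich higher in all 3 groups and 126 (0.809%) with crypt-rich lower. In at least 2 groups, 1310 (8.41%) were higher and 1363 (8.75%) lower. Since the libraries were selected on expression, these shares are the background for each list, not evidence. In bulk RNA, fewer cells of a type and less RNA per cell cannot be told apart.

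Genes of cell division other than the score genes stood higher in the crypt-rich libraries. All 35 genes of the G2 and mitosis list did so, with a median difference of 0.67 against 0.01 for all genes, and 18 were separated in at least 2 groups. Cenpf, a kinetochore protein, is the member with the largest difference (0.80). In Lactating it stood at 46.4, 33.7 and 26.4 CPM in the crypt-rich libraries and at 20.9, 11 and 13.2 CPM in the villus-rich libraries, each set in falling order of score. In VirginM the values were 37.6, 36.2 and 34.9 against 33.8, 23.8 and 28.1 CPM. The classes did not overlap in either group, and in VirginF they did, since crypt-rich VirginF 3 held 19.6 CPM and villus-rich VirginF 2 held 24.3 CPM. Nuf2, another kinetochore protein, was separated in all 3 groups (0.79).

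The replication list behaved alike. All 30 members stood higher, with a median of 0.59, and 16 were separated in at least 2 groups. Pole, the catalytic subunit of the leading-strand polymerase, ran from 8.12 to 21.4 CPM (median 16.8) in the 9 crypt-rich libraries and from 4.19 to 14.1 CPM (median 8.57) in the 9 villus-rich libraries, a difference of 1.0. Clspn, which senses stalled forks (0.94), and Chaf1b, a subunit of the histone chaperone CAF-1 (0.79), were separated in all 3 groups. Of the cell cycle regulators 12 of 16 stood higher and 4 lower (median 0.47), with 8 separated higher and 1 lower in at least 2 groups. The transcription factors E2f7 (0.92), E2f8 (0.84), Foxm1 (0.82) and E2f1 (0.79) stood higher, each separated in 2 groups. In VirginM the medians of both lists were small, 0.26 and 0.20, beside the small gap in score.

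The promoters of these lists carry the letters through which cell cycle genes are known to be timed. Of the mitosis list, 30 genes matched 33 windows of the RefSeq promoter table (GRCm38.p6, 250 bases before to 50 after a start). The cell cycle homology region, TTTGAA on either strand, was in 24 of the 33 (72.7%) and the CCAAT box, CCAAT on either strand, in 25 (75.8%). Over all 32851 windows the shares were 17.9% and 37.4%, and over the 13352 windows of tested genes 12.3% and 38.1%. The E2F letters, TTCCCGC on either strand, were in 15 of 30 windows of the replication list (50%, 25 genes matched) and in 4.6% of all windows and 7.86% of those of tested genes. Of the 152 genes separated upward in all 3 groups, 126 matched, and their windows held the 3 motifs in 12.4%, 39.1% and 11.8%. Shown are, from each list, the 2 genes with the largest class difference that hold the letters in the 250 bases up to their start. Each is written 5′ to 3′ on the gene's strand, with cell cycle homology region, CCAAT box or, in the replication genes, E2F letters in capitals.
Kif11 (spindle motor, difference 0.74, chr19:37376132-37376381, plus strand): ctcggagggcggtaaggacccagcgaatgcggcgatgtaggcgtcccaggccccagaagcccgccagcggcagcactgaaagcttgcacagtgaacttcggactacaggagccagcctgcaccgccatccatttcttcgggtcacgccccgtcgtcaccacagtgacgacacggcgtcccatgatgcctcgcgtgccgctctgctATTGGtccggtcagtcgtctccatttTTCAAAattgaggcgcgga
Kif2c (microtubule depolymerase, difference 0.73, chr4:117178773-117179022, minus strand): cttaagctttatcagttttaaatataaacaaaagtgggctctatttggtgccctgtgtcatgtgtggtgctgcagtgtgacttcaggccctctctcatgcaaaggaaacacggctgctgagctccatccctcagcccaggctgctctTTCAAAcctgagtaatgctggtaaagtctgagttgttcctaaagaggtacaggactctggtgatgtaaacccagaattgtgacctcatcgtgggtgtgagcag
Chaf1b (difference 0.79, chr16:93883651-93883900, plus strand): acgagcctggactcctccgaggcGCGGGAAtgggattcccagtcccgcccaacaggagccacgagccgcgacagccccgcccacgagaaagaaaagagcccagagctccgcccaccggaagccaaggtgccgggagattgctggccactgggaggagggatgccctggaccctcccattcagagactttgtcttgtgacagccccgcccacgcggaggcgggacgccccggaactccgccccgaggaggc
Pola1 (catalytic subunit of DNA polymerase alpha, difference 0.77, chrX:93632156-93632405, minus strand): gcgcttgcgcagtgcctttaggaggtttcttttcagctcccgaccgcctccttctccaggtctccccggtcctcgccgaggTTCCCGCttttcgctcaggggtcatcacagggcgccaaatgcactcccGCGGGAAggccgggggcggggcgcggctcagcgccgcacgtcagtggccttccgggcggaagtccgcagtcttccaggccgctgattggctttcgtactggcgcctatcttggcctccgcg
A match is a description of the letters in a window and shows no binding.

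Genes that supply dividing cells followed. Of the nucleotide synthesis list 24 of 25 members stood higher in crypt-rich libraries (median 0.57), and 5 were separated in all 3 groups. They include Paics and Ppat, enzymes of purine synthesis (0.70 and 0.72). Paics ran from 15.6 to 28.1 CPM (median 24.0) in crypt-rich and from 7.71 to 21.8 CPM (median 14.0) in villus-rich libraries. Of the ribosome biogenesis list 24 of 25 stood higher (median 0.52). Nolc1, a nucleolar phosphoprotein, was separated in all 3 groups (0.72). Its crypt-rich values in VirginF were 44.0, 47.5 and 28.3 CPM and its villus-rich values 21.1, 17.4 and 14.7 CPM, and in VirginM they were 45.8, 38.0 and 41.2 against 36.5, 34.7 and 37.1 CPM. The ribosomal proteins themselves differed less, with 78 of 84 higher and a median of 0.19. Their median was 0.50 in VirginF, 0.06 in VirginM and 0.01 in Lactating, where 43 of 84 stood higher.

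Stem cell and Wnt genes stood higher too. Of the stem cell list 18 of 19 tested members did (median 0.70), and 3 were separated in all 3 groups: Smoc2 (0.75), Tnfrsf19 (0.92) and Lrig1 (0.62), which was picked with its values in view. Lgr5, which marks crypt base stem cells, stood at 11.4, 5.18 and 7.54 CPM in crypt-rich and 4.13, 1.55 and 3.10 CPM in villus-rich Lactating libraries. In VirginF the values were 13.6, 11.9 and 7.65 against 5.50, 8.47 and 2.27 CPM, and in VirginM 10.8, 9.54 and 9.86 against 5.83, 7.47 and 5.68 CPM. Only villus-rich VirginF 2 reached the crypt-rich values of its own group, and the difference over all groups was 1.04. Olfm4, a secreted stem cell marker, had differences of 1.07 in Lactating, 1.29 in VirginF and 0.21 in VirginM. Of the Wnt target list 15 of 16 stood higher (median 0.64), led by Nkd1, a feedback inhibitor of the pathway (1.14, at most 1.74 CPM), and with Sox9 at 0.77. Of the Notch list 8 of 11 stood higher, among them the receptors Notch1 (0.83) and Notch2 (0.62).

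**Figure D2:**
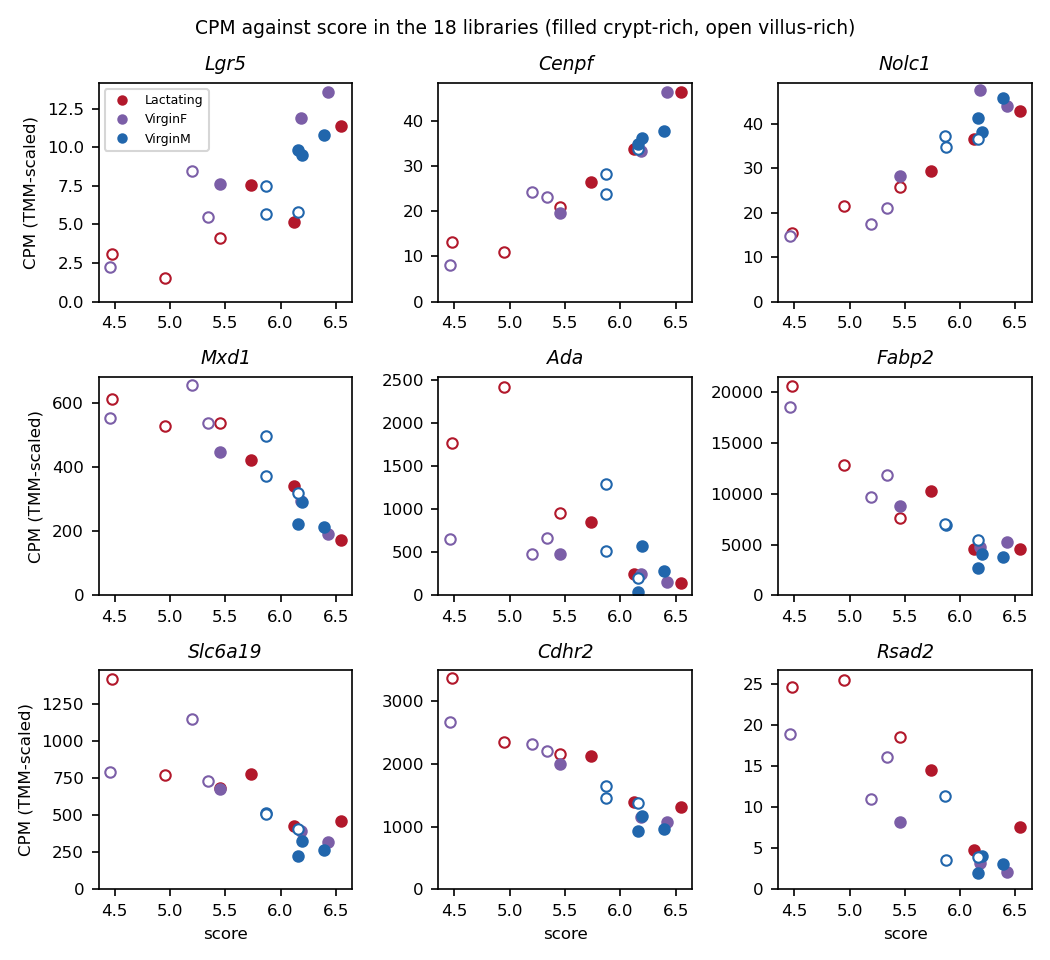
CPM (y axis, TMM-scaled) of 9 genes against the score (x axis) in 18 libraries, coloured by group; filled points are crypt-rich and open points villus-rich. Lgr5, Cenpf and Nolc1 lie higher at high scores and the other 6 genes lower, with the VirginM libraries together at the right.

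Genes that halt the cycle stood lower in crypt-rich libraries, 12 of 13 on that list (median -0.31). Mxd1, a repressor that opposes Myc, was separated in all 3 groups (-0.82). It stood at 172, 343 and 422 CPM against 538, 529 and 613 CPM in Lactating, at 191, 295 and 448 against 540, 659 and 555 CPM in VirginF, and at 214, 291 and 222 against 320, 375 and 499 CPM in VirginM. Its difference was -0.72 in VirginM and -0.84 in Lactating, although the score gap was 0.28 and 1.17. Cdkn1a, the inhibitor p21, was lower by less (-0.45) and separated in 2 groups. Myc itself stood higher (0.66, separated in 2 groups).

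BMP signals hold back stem cells and come mostly from the villus side. On a list of BMP and hedgehog genes 8 of 10 stood lower (median -0.32), but 0 were separated in at least 2 groups in either direction. Bmp8b, a ligand, had -1.35 and Id3, a target, -0.38, while Bambi, a decoy receptor that dampens BMP and is also a Wnt target, stood higher (0.98). Bmp8b and Bambi were separated in VirginF and overlapped in Lactating and VirginM. Factors of absorptive identity stood lower in 15 of 22 (median -0.12). Prdm1 had -1.26 and Klf4, a factor of cells past division, -0.65. Hnf4a and Hnf4g, which keep the absorptive programme, differed by -0.08 and -0.20, and Hnf4g stood at 0.20 in Lactating and -0.49 in VirginF.

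Among secretory cells, Paneth genes stood higher throughout and the other lists were mixed. All 19 Paneth genes stood higher in crypt-rich libraries in each group, with medians of 0.28 in Lactating, 1.56 in VirginF and 0.86 in VirginM. Ang4, an antimicrobial ribonuclease, stood at 400, 559 and 322 CPM against 135, 187 and 26.5 CPM in VirginF. In VirginM it stood at 427, 343 and 439 against 160, 305 and 94.0 CPM. In Lactating it overlapped, at 206, 102 and 133 against 70.0, 104 and 99.2 CPM. Lyz1, the Paneth lysozyme, ran from 1724 to 5848 CPM in crypt-rich and from 412 to 4944 CPM in villus-rich libraries (0.94), and villus-rich VirginM 2 held that 4944. None of the 19 was separated in all 3 groups. Alpha-defensin genes such as Defa24 (0.92) are near-identical copies whose counts could share reads.

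Goblet genes stood higher in 12 of 16 (median 0.23), with 5 of 16 higher in Lactating and all 16 in VirginM. Muc2, the main mucin, differed by 0.04 over all groups, from -0.45 in Lactating to 0.77 in VirginM, where crypt-rich VirginM 6 held 2326 CPM and the other 5 held 696 to 1206. Enteroendocrine genes stood higher in 13 of 21 and lower in 8 (median 0.04), with 9 of 21 higher in each female group and 20 of 21 in VirginM. Neurog3, the factor that starts that lineage in the crypt, had the largest difference, 0.93 at 0.176 to 1.25 CPM, while Sct had -0.49 and Chga -0.05. Of the enteroendocrine genes 0 were separated in at least 2 groups. Tuft genes stood higher in 8 of 11 (median 0.29), with 3 of 11 higher in Lactating (-0.14), 8 in VirginF and 9 in VirginM, and 0 were separated in at least 2 groups. Their differences ran from -0.51 to 0.87 for Dclk1, which was separated only in VirginF. Bhlha15, a factor of secretory cells picked with its values in view, had 1.01.

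Absorptive genes stood lower in crypt-rich libraries over the 3 groups. All 16 brush border enzymes and all 19 microvillus genes did so (medians -0.58 and -0.46), as did all 24 fat absorption genes (-0.61), 22 of 23 villus tip genes (-0.57), 8 of 9 sugar transporters (-0.62) and 13 of 17 amino acid and peptide transporters (-0.40). In Lactating 8 of those 17 stood higher and their median was -0.09. Separation in at least 2 groups was found for 8, 10, 13, 6, 5 and 5 members in that order. Cdhr2, a protocadherin that ties microvilli together, was separated in all 3 groups (-0.68). In VirginM it stood at 956, 1176 and 922 CPM against 1373, 1463 and 1652 CPM, and in Lactating at 1306, 1394 and 2130 against 2164, 2359 and 3372 CPM. The 4 amino acid genes that stood higher include Slc1a5 (0.73) and Slc7a5 (0.68), importers that many dividing cells use.

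**Figure D3:**
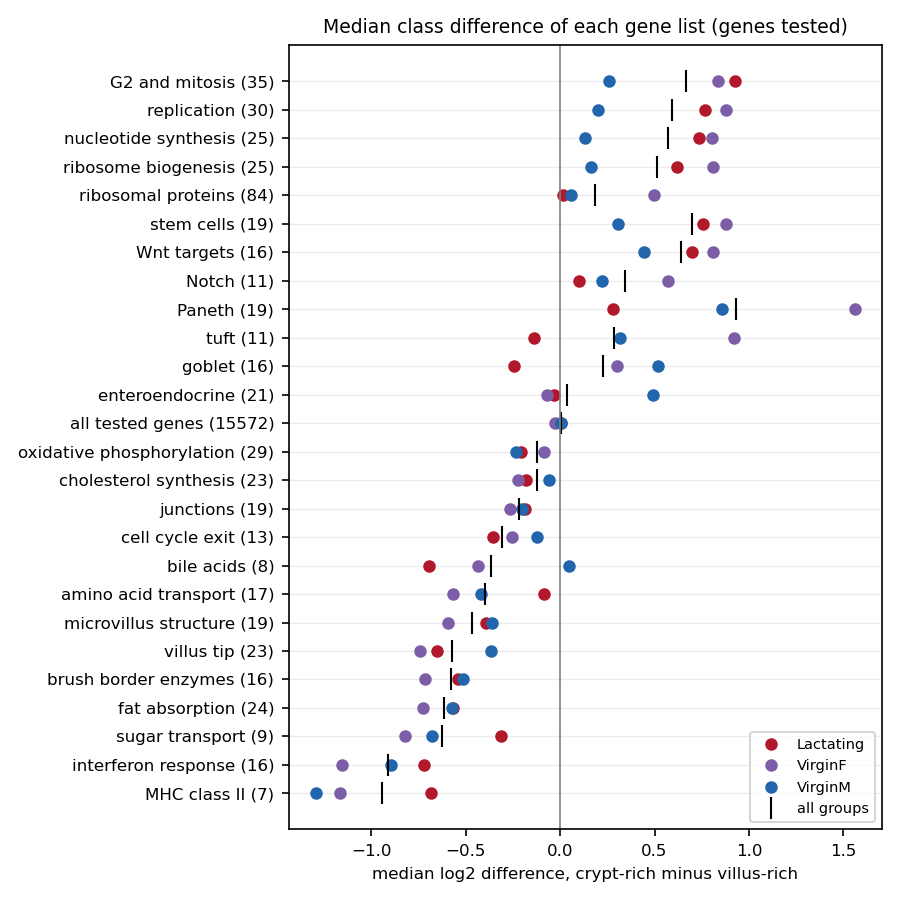
Median log2 class difference (x axis, crypt-rich minus villus-rich) of 25 gene lists and of all tested genes, with the number of genes tested in brackets. Coloured points are groups and black bars all groups. Division lists lie right of 0 with VirginM nearest to it. Absorptive and interferon lists lie left, save the bile acid list in VirginM (0.05). The Paneth list spreads from 0.28 in Lactating to 1.56 in VirginF.

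Fabp2, the intestinal fatty acid binding protein, had the values 4566, 4544 and 10244 CPM against 7578, 12858 and 20636 CPM in Lactating, 5288, 4798 and 8821 against 11849, 9649 and 18594 CPM in VirginF, and 3791, 4078 and 2665 against 5464, 6922 and 7015 CPM in VirginM. The classes overlapped only in Lactating, and the fold of villus-rich over crypt-rich was 2.12, 2.12 and 1.84. Of the tip genes, Ada, which breaks down adenosine, differed by -1.41. It ran from 43.6 to 851 CPM (median 253) in crypt-rich and from 199 to 2422 CPM (median 662) in villus-rich libraries. Nt5e, which forms adenosine (-1.30), Slc28a2, which imports it (-1.22), and Apoa4, an apolipoprotein of chylomicrons (-1.23), lay beside it, each with a larger difference in Lactating (-1.95, -1.94 and -1.92) than in VirginF or VirginM. The classes overlapped in every group for Nt5e, while Slc28a2 was separated only in Lactating and Apoa4 only in VirginF. The sucrase gene Sis differed by -0.26 and was separated in none of the groups, and in Lactating it differed by 0.14. The sodium-glucose importer Slc5a1 had -0.53, and the neutral amino acid importer Slc6a19 had -0.85.

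Ileal bile acid genes stood lower in 7 of 8 (median -0.37), and in VirginM 4 of 8 stood higher. Slc10a2, the importer of bile acids, stood at 167, 213 and 178 CPM against 340, 386 and 279 CPM in Lactating, and at 55.9, 80.5 and 167 against 284, 164 and 291 CPM in VirginF. In VirginM it stood at 106, 131 and 141 against 122, 118 and 104 CPM. It was separated in Lactating and overlapped in the other groups. Cell junction genes stood lower in 17 of 19 (median -0.22), with Cldn4, a tight junction protein, at -1.15 although its classes overlapped in every group.

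Interferon and antigen presentation genes showed differences as large as those of absorption. All 16 interferon genes stood lower in crypt-rich libraries (median -0.91), with summed levels of 118 to 516 CPM in crypt-rich and 267 to 913 CPM in villus-rich libraries. Rsad2, the antiviral enzyme viperin, stood at 7.56, 4.81 and 14.5 CPM against 18.6, 25.5 and 24.6 CPM in Lactating and at 2.12, 3.22 and 8.14 against 16.1, 11 and 18.9 CPM in VirginF. In VirginM it overlapped, at 3.04, 3.99 and 1.91 against 3.87, 3.53 and 11.4 CPM. Of the 16 genes, 4 were separated in 2 groups and 0 in all 3. Cd274, a ligand that restrains T cells, differed by -1.62 and was picked here with its values in view. The markers of T cells were low beside these values, and all 17 members of the T cell list had means under 1 CPM. Their summed levels were 0.952 to 4.63 CPM in crypt-rich and 1.01 to 8.31 CPM in villus-rich libraries. Of the 6 tested members 4 stood lower in crypt-rich libraries and 2 higher. They ran from -1.39 for Gzma of cytotoxic lymphocytes to 0.74 for Lck, and in VirginM 4 of the 6 stood higher.

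The core of the interferon-stimulated response element, GAAANNGAA on either strand, was in 10 of 13 windows of this list (76.9%, 12 genes matched) and in 8.56% of all windows and 7% of those of tested genes. This motif was added after the list had been seen. The 2 genes with the largest class difference are shown by the same rule, with the core in capitals.
Rsad2 (difference -1.40, chr12:26456453-26456702, minus strand): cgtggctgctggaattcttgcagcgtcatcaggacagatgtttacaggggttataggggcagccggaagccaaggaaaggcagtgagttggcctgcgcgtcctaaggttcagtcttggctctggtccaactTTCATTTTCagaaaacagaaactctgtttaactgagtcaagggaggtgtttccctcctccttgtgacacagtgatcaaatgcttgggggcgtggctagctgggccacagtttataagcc
Isg15 (ubiquitin-like modifier, difference -1.21, chr4:156200819-156201068, minus strand): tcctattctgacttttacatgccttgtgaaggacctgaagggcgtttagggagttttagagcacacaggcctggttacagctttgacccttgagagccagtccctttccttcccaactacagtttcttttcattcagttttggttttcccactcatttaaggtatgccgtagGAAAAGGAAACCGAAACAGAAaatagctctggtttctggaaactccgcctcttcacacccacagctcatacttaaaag
Isg15 holds 3 overlapping matches and Rsad2 1. The HNF4 letters CAAAGTCCA, searched because HNF4 acts in absorptive cells, were in 0 of 19 windows of the fat absorption list and 0.475% of all windows. In the genes separated downward in all 3 groups they were in 3 of 133 windows (2.26%, 95 genes matched), against 0.547% of those of tested genes. The interferon core and the E2F letters were each in 5.26% of those 133 windows, against 7% and 7.86% for tested genes. The cell cycle homology region was in 14.3% and the CCAAT box in 34.6%, against 12.3% and 38.1%.

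All 7 MHC class II genes stood lower in crypt-rich libraries (median -0.94), and none was separated in more than 1 group. H2-Aa, a chain of the class II molecule, stood at 107, 111 and 134 CPM against 568, 252 and 371 CPM in VirginM. In the females it overlapped, from 38.4 to 543 CPM in crypt-rich and from 131 to 1404 CPM in villus-rich libraries. Cd74, its chaperone, differed by -0.94. Dendritic cells and B cells also express these genes, and the B cell list summed to 0.833 to 3.64 CPM in crypt-rich and 1.03 to 8.23 CPM in villus-rich libraries.

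Antimicrobial genes of the lower villus had no common direction, with 6 of 16 higher and a median of -0.24. The gasdermin Gsdmc2 stood at 93.2, 751 and 95.6 CPM against 76.4, 18.6 and 43.0 CPM in VirginF and at 49.9, 87.6 and 44.7 against 43.5, 32.2 and 11.1 CPM in Lactating. In VirginM the order was not kept, at 144, 159 and 195 against 311, 108 and 120 CPM. Its neighbour Gsdmc4 gave 0.99, 2.45 and -0.24 in Lactating, VirginF and VirginM, and reads could be shared between such copies. Reg3b, an antimicrobial lectin, ran from 1669 to 17449 CPM in crypt-rich and from 1129 to 21819 CPM in villus-rich libraries, a difference of -0.28. Lactating 3 and Lactating 6 held the 2 highest values, 1 in each class.

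**Figure D4:**
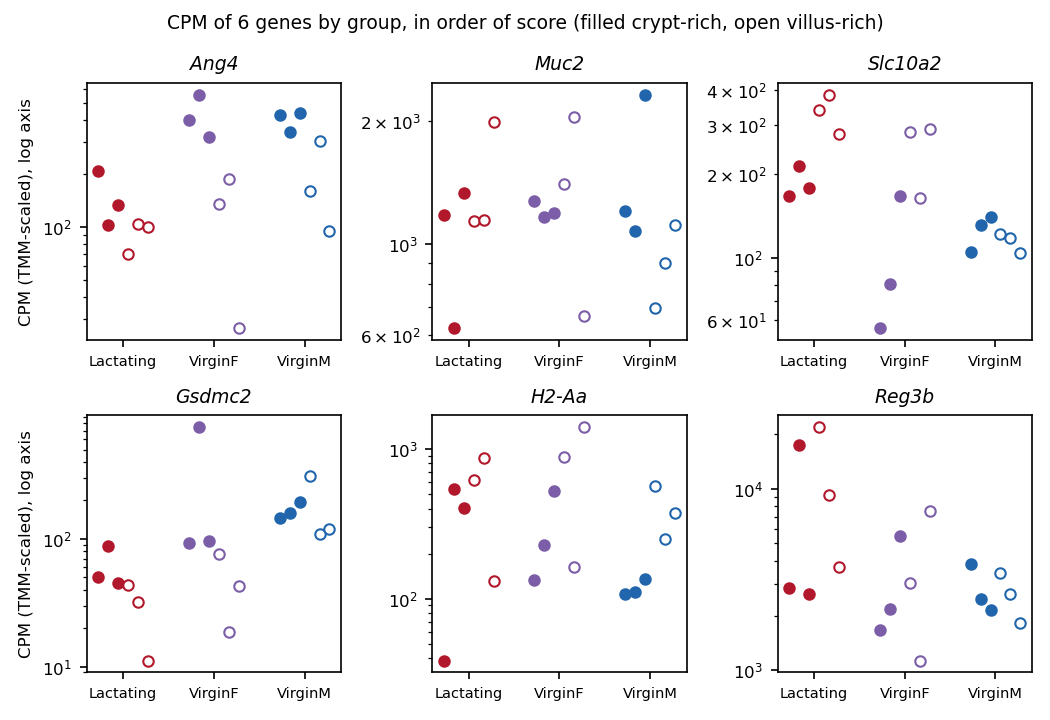
CPM (log y axis, TMM-scaled) of 6 genes by group, libraries in falling order of score, filled crypt-rich and open villus-rich. Ang4 is separated in VirginF and VirginM, Slc10a2 in Lactating, H2-Aa in VirginM and Gsdmc2 in both female groups, while Muc2 and Reg3b overlap in every group.

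Metabolic lists leaned lower by little. Nuclear oxidative phosphorylation genes stood lower in 27 of 29 (median -0.12), cholesterol synthesis genes in 19 of 23 (-0.12) and fatty acid oxidation genes in 15 of 18 (-0.21), where Creb3l3, a factor of lipid metabolism, had -0.81. Of the mitochondrially encoded genes 1 of 13 stood higher in Lactating and 13 of 13 in VirginM, with a median of -0.08 over all groups. Early response and stress genes stood higher in 8 of 18 (-0.02), and their direction changed in 7 alternative settings.

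Lists of cells other than epithelium had few tested members, and several of those are also made by epithelial cells, such as Prdm1 and Lyz2. Tested members numbered 2 of 12 for B cells (median -0.54), 7 of 9 for germinal centre B cells (0.35), 6 of 9 for plasma cells (-0.64), 6 of 17 for T cells (-0.67), 4 of 13 for myeloid cells (0.18), 3 of 12 for stroma (-0.12), 4 of 8 for endothelium (0.41), 2 of 7 for glia (0.12) and 0 of 6 for red cells. Of the 6 tested plasma cell genes 5 stood lower in crypt-rich libraries and 1 higher. Jchain and Igha differed by -1.38 and -1.05, at 0.0183 to 0.668 against 0.176 to 2.28 CPM and at 0.201 to 2.33 against 0.559 to 5.68 CPM. Derl3 went the other way by 1.16, at 0.622 CPM or less. Summed over its members, the plasma cell list stood at 222 to 311 CPM in crypt-rich and 260 to 353 CPM in villus-rich libraries. Members other than Jchain, Igha and Derl3 gave most of that sum, and 5 of the 9 had means under 1 CPM. The myeloid list summed to 22.5 to 51.7 CPM in crypt-rich and 12.4 to 41.6 CPM in villus-rich libraries. Much of that sum was Lyz2, which is also on the Paneth list, at 12.3 to 43.7 against 3.97 to 35.5 CPM. Of the 13 myeloid members 10 had means under 1 CPM, and of the 4 tested 3 stood higher and 1, Csf1r (-0.51), lower. The epithelial list stood lower in 8 of 10 (median -0.26), and Cdh1 ran from 769 to 909 CPM in crypt-rich and 798 to 877 CPM in villus-rich libraries. The part of these cells in the class differences was not tested.

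The strictest description, a fold of at least 2 with separation in all 3 groups, held for 9 genes higher (0.0578%) and 7 lower (0.045%) in crypt-rich libraries. Of those with a mean of at least 5 CPM, Lcp1, an actin-bundling protein, was higher (1.02) and Aldh4a1, Sgk2, Apol7a and Tlcd2 were lower. Aldh4a1, a mitochondrial enzyme of proline breakdown, stood at 17.6, 33.2 and 32.5 CPM against 58.9, 53.1 and 85.2 CPM in Lactating, at 7.86, 12.4 and 21.8 against 37.9, 31.3 and 32.2 CPM in VirginF, and at 8.43, 7.89 and 5.56 against 20.5, 13.9 and 19.7 CPM in VirginM. Its fold of villus-rich over crypt-rich was 2.37, 2.41 and 2.47 in these groups, so it was as large in VirginM as in the females. Sgk2, a kinase, had -1.08 and ran from 9.69 to 38.4 CPM (median 15.1) in crypt-rich and from 17.2 to 74.1 CPM (median 38.3) in villus-rich libraries. Lcp1 stood at 10.5, 5.75 and 5.16 against 5.11, 3.75 and 2.54 CPM in Lactating, at 11.4, 10.6 and 5.57 against 2.85, 4.85 and 1.54 CPM in VirginF, and at 9.55, 8.07 and 8.67 against 5.76, 6.34 and 5.56 CPM in VirginM. Its classes nearly touched in Lactating. Apol7a and Tlcd2 lay at -1.02 and -1.01. Nearest to the limit, Lcp1 (1.02) and Tmem182 (1.04) lay just inside and Iffo2 (0.99) and Rad54b (0.99) just outside, and for lower genes Tlcd2 and Apol7a lay inside and Gm37385 (-0.99) and Ltb4r2 (-0.95) outside. Among the low genes, Slc6a18, an amino acid transporter (-1.61) picked with its values in view, had a mean of 3.02 CPM in the villus-rich libraries. These counts depended on single libraries: without VirginF 3 they were 31 and 23, and without Lactating 2 the higher count was 5. Without VirginF 2 and VirginM 6 they were 34 and 19, and with Lactating and VirginF only 82 and 75.

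The groups share no library, so the class differences of 15566 genes (without the score genes) could be set side by side. Across genes, which share libraries and are not independent replicates, Pearson's r was 0.544 between Lactating and VirginF, 0.193 between Lactating and VirginM and 0.191 between VirginF and VirginM, and Spearman's rho 0.59, 0.404 and 0.457. Of 2004 genes separated upward in Lactating, 566 were separated upward in VirginF, which is 28.2% of the Lactating set and 23% of the 2461 VirginF genes, and 25 (1.25%) were separated downward there. In VirginM 515 of them were separated upward (25.7% of the Lactating set and 26.6% of the 1934 VirginM genes). Of 1812 separated downward in Lactating, 366 were so in VirginF (20.2% of the Lactating set and 18.5% of the 1984 VirginF genes) and 607 in VirginM (33.5% of the Lactating set and 28.9% of the 2103 VirginM genes). Among all genes 15.8% were separated upward in VirginF and 12.4% in VirginM, and 12.8% and 13.5% downward.

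An interaction term in edgeR set the class difference of one group against that of another. It called 0 genes in each of the 3 comparisons (0% of 15572 at an adjusted p under 0.05). At an unadjusted p under 0.05 there were 870 genes for Lactating minus VirginF, 1025 for VirginM minus VirginF and 1036 for Lactating minus VirginM, and DESeq2 called 6, 7 and 17. The classes were sorted on expression and the score gap differed by group, so these fits are no independent test and nothing is read from them. The contrasts between groups given above for Gsdmc2, Slc10a2 and the Paneth genes stand only as values side by side, with no valid test behind them.

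The study's own comparison of groups could be made with class in the model, since each group holds 3 libraries of each class. That term was itself made by sorting libraries on expression, which lowers the remaining spread of genes that follow the score, so in all 3 comparisons the p-values of such genes cannot be taken at face value and counts without the term are given beside. For Lactating against VirginF, 25 genes (0.161%) passed edgeR's adjusted p under 0.05, 21 higher and 4 lower in Lactating, against 9 without the class term, all of them among the 25. Bcl6, a transcriptional repressor, fell in Lactating in both classes, by 1.85 among crypt-rich and by 2.05 among villus-rich libraries on the log2 scale. It ran from 2.10 to 4.16 CPM (median 2.98) in Lactating and from 8.49 to 16.4 CPM (median 11.5) in VirginF, without overlap (log2 fold change -1.96, SE 0.18, adjusted p = 3.69e-05, and 2.8e-05 without the class term). It kept its call in all 26 alternative settings. VirginM stood beside VirginF, at 8.58 to 13.9 CPM (median 12). Its class difference was -0.11, and the rise of the iron exporter Slc40a1 in Lactating (1.47, SE 0.25, adjusted p = 0.0207, and 0.0271 without the class term) came with a class difference of -0.02. It ran from 28.8 to 77.3 CPM (median 53) in Lactating and from 12.5 to 23.9 CPM (median 20.1) in VirginF, without overlap. Slc40a1 lost its call in 6 of 26 settings, among them those without Lactating 6 (adjusted p = 0.057), VirginF 2 (0.0626), VirginF 4 (0.0583) or VirginF 6 (0.0655). S100g, a calcium-binding protein of absorptive cells, rose by 4.70 (SE 0.68, adjusted p = 0.00965, and 0.00808 without the class term), from 1.34 to 3.61 CPM (median 2.81) in VirginF to 6.15 to 202 CPM (median 30.2) in Lactating, and by 5.58 among villus-rich against 3.87 among crypt-rich libraries. It lost its call in 2 of 26 settings, without VirginF 2 and VirginM 6 (adjusted p = 0.0641) and with the replicate number as a block (0.0628).

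VirginM against VirginF gave 16 genes (0.103%), 7 higher and 9 lower in males, of which 11 lie on the X or Y chromosome, and 13 without the class term. Lactating against VirginM gave 623 genes (4%), 477 higher and 146 lower in Lactating, against 119 without the class term and 94 with the score itself as covariate. These groups differ in both sex and lactation, which this comparison cannot tell apart, and 36 of the 623 lie on the X or Y chromosome. Many of the 623 were genes that followed the score. Of the 477 higher in Lactating, 223 (46.8%) were separated with crypt-rich lower in at least 2 groups, against 8.75% of all genes and 15 of 98 (15.3%) of those called without the class term. Of the 146 lower in Lactating, 59 (40.4%) were separated with crypt-rich higher, against 8.41% of all genes. The score of Lactating was lower by 0.56. Each group holds the same number of libraries of each class, so the class term takes up none of this difference between groups, and its part in the 623 calls was not tested. Slc31a1, a copper importer, stood higher in Lactating than in VirginM by 1.54 (SE 0.17, adjusted p = 5.39e-05, and 5.28e-04 without the class term) and kept its call in all 26 settings. It stood at 345 to 936 CPM (median 493) in Lactating and 147 to 226 CPM (median 186) in VirginM, without overlap, and had a class difference of -0.42. VirginF stood at 193 to 370 CPM (median 293) and overlapped both of these groups.

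**Figure D5:**
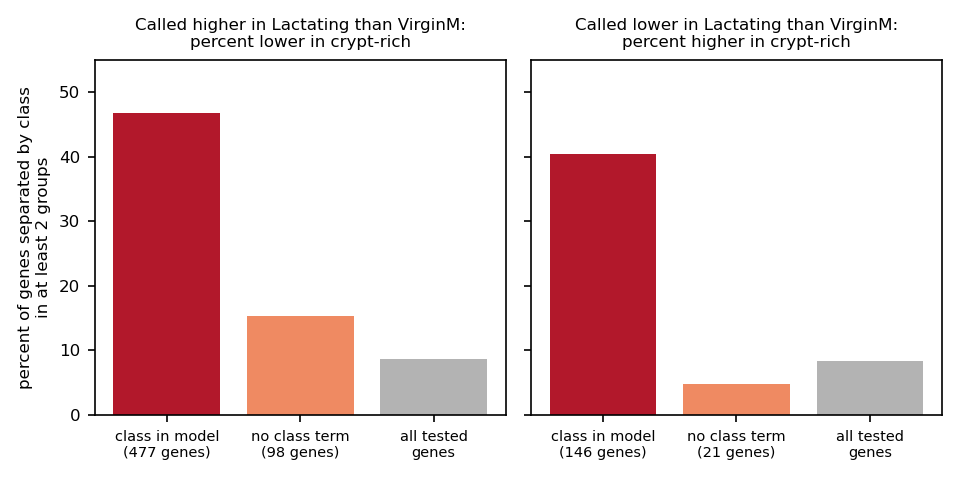
Percent of genes (y axis) separated by class in at least 2 groups, among genes called between Lactating and VirginM with class in the model, among those called with no class term, and among all tested genes. With class in the model the bars stand at 46.8% and 40.4%, against 8.75% and 8.41% of all genes.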

How the data were processed

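RNA of sorted ileal epithelium was measured by sequencing in 18 libraries (6 Lactating, 6 VirginF, 6 VirginM). The authors deposited raw counts of reads per Ensembl gene for each library, and 47310 of 47729 identifiers had a symbol in GENCODE M21. HISAT2 2.0.4, featureCounts, Subread 2.0.0, DESeq2 1.24.0, FastQC 0.11.5 and the build GRCm38 are listed in the submitters' processing notes. Not given in the sources used here: annotation release, strand setting and the handling of reads with several matches. Therefore overlapping and near-identical genes are uncertain.

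The score used CPM by library total with a pseudocount of 1. The other values used edgeR 4.0.16 (R 4.3.3): filterByExpr kept 15572 genes, TMM scaled the libraries, and quasi-likelihood fits gave the class difference with group as a block (no p), the interaction of class and group, and the groups with class in the model. Benjamini-Hochberg adjustment ran over all 15572 genes. SE is the absolute fold change over the square root of F. Permutation tests used scipy 1.17.1. The fits were tested on simulated data with class labels fixed beforehand. That test does not cover the sorting of libraries on their own expression.

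Genes were named by a rule: called genes with at least 5 CPM (up to 15 per direction), up to 4 members of each of 42 gene lists by size of difference, a set always given, up to 10 genes per group test, and those nearest the fold limit. The members and lists were chosen with earlier results of these data known. Totals of 34577104 to 49039300 counts put a count of 3 at 0.0612 to 0.0868 CPM, which covers counting error only since reads had no molecular identifiers. No pair of the 153 library pairs agreed within sampling noise. Alternatives were DESeq2 1.42.0 tests and size factors, no filter, other scores, folds and splits, left-out libraries, no class term, the score as a covariate and the replicate number as a block. Some named genes are not reported here.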

Additional observations from a re-analysis of the deposited data

Results flagged for a closer look

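Of 279 sets of 6 libraries of a group (93 values in 3 groups each), 4 held a library that lay far from the other 5, where chance gives about 1 in 20. Gm42418, the transcript that overlaps ribosomal RNA, had a log2 CPM of 14.92 in villus-rich VirginF 2 and of 14.87 in crypt-rich VirginM 6, far above the other libraries of each group. Gsdmc4, a gasdermin, had a log2 CPM of 8.62 in villus-rich VirginM 3, above the other VirginM libraries. The stroma list, of which 10 of 12 members had means under 1 CPM, had a mean log2 CPM of 1.14 in crypt-rich Lactating 3, apart from the other Lactating libraries.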

How the results depend on the processing

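The classes rest on small gaps in VirginM, and the strict counts moved with most choices. Genes higher and lower in crypt-rich libraries numbered 9 and 7. A fold of 1.5 gave 87 and 52, separation in at least 2 of 3 groups 45 and 69, the score in place of classes 39 and 138, the 2 highest against the 2 lowest libraries 240 and 212, no VirginF 2 and VirginM 6 gave 34 and 19, no VirginM 3 and VirginM 6 gave 24 and 21, and Lactating and VirginF only 82 and 75. Without 1 library the higher count ran from 5 to 31, moving by over 1.5 times without Lactating 2 (5), Lactating 3 (18), Lactating 6 (19), VirginF 2 (26), VirginF 3 (31), VirginM 1 (15), VirginM 2 (17), VirginM 3 (18) and VirginM 6 (14). The lower count ran from 4 to 23, moving without VirginF 4 (4), Lactating 3 (11), VirginM 4 (11), Lactating 6 (13), VirginF 2 (13), VirginM 1 (18), VirginM 3 (20), Lactating 4 (21) and VirginF 3 (23). For Lactating against VirginF, 25 genes became 53 with the score as covariate, 9 with no class term, 100 with DESeq2, 39 with no filter, 1 without VirginF 2 and VirginM 6 and 8 without VirginM 3 and VirginM 6. Without 1 library they ran from 5 (without VirginF 4) to 31, with 7 to 16 without any of 15 other libraries. For VirginM against VirginF, 16 genes became 250 with DESeq2, 86 with no filter and 10 without VirginM 3 and VirginM 6, and ran from 11 to 49 without 1 library (28 without Lactating 1 and 49 without VirginF 4). For Lactating against VirginM, 623 genes became 94 with the score as covariate, 119 with no class term, 1565 with DESeq2 and 131 without VirginM 3 and VirginM 6. Without 1 library they ran from 217 (without VirginM 2) to 1427 (without Lactating 2), with 224 without VirginM 3, 255 without Lactating 1, 279 without Lactating 4, 284 without VirginM 5 and 339 without VirginM 6. The interaction called 0 genes in each comparison, 6, 7 and 17 with DESeq2 (Lactating minus VirginF, VirginM minus VirginF, Lactating minus VirginM) and 1, 3 and 4 with no filter. Of the alternative list medians 1286 stayed within the spread and 56 moved further. In settings with more than 1 group the direction changed for the early response, enteroendocrine, stroma and lower villus lists. Within single groups it also changed for the goblet (-0.25), tuft (-0.14) and glia (-0.27) lists in Lactating and the myeloid list in VirginF (-0.07). In VirginM it changed for the bile acid (0.05), mitochondrially encoded (0.14) and T cell (0.17) lists. Of the alternative group fold changes of named genes 733 kept their call, 39 lost it and none reversed. The replicate numbers did not pair the libraries, since correlations of same-numbered deviations ran from -0.219 to 0.477 and the own number was the best in 4 of 18 pairs. With the replicate block 5 genes were higher and 8 lower, and the group comparisons called 15, 28 and 741 genes. The settings with Lactating and VirginF only and without VirginM 3 and VirginM 6 were chosen after seeing the data. The causes were not tested.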
